A study of Mus musculus with 12 samples.

Results

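The epithelial miRNAs considered here are the 5 mature products of the miR-200 family (mmu-miR-200a-3p, mmu-miR-200b-3p, mmu-miR-200c-3p, mmu-miR-141-3p and mmu-miR-429-3p), mmu-miR-203-3p and mmu-miR-205-5p, written below without the species prefix. They were taken by name from a table of 1900 mature miRNAs measured by small RNA sequencing of mouse gastrocnemius, the large calf muscle. The 7 miRNAs of these 1900 were chosen as possible markers of non-muscle tissue in the libraries, and which cells their reads came from was not measured. Whole muscle of male C57BL/6 mice was sequenced at 6 months (young, 6 libraries) and at 24 months (aged, 6 libraries), with 1 library per muscle and no treatment named for either age. Whole muscle holds fibres together with vessels, nerve, connective tissue and blood, and both groups are of 1 sex and strain. All 7 miRNAs had a read in at least 1 library, but only miR-203-3p was read in every library. The other 6 had 58 reads together in 8550241 young and 13473424 aged mapped reads.

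In epithelia the miR-200 family holds down Zeb1 and Zeb2, transcription factors that switch off E-cadherin and drive cells towards a mesenchymal state. miR-203 is best known from the upper layers of skin, where it restrains the stem cell factor p63, and miR-205 is abundant in skin and other stratified or glandular epithelia. Muscle fibres are not epithelial cells. In bulk tissue, fewer cells of a type and less RNA per cell cannot be told apart.

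The mature sequences of the 7 miRNAs are given from RefSeq (GRCm38.p6, the mm10 assembly) to show which of them can pair with the same targets, with the seed (bases 2 to 8 from the 5′ end) in capitals. The first pair shares 1 seed and the next 3 share another.
miR-200a-3p: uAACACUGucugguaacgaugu
miR-141-3p: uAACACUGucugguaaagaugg
miR-200b-3p: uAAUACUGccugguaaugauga
miR-200c-3p: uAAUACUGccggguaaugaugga
miR-429-3p: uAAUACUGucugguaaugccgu
miR-203-3p: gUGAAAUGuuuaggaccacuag
miR-205-5p: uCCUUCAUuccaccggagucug

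Counted from the 5′ end, the 2 seeds of the miR-200 family differ by C4U (miR-200a-3p first, miR-200b-3p second). Within a seed the sequences are close. miR-200a-3p and miR-141-3p are identical over their first 16 bases and differ only by C17A and U22G. miR-200b-3p and miR-200c-3p differ by U11G and A22G over the 22 bases they share. A read that ends before the differing base fits both entries of such a pair, and how such reads were assigned is not stated. None of the 4 seeds occurred in any other miRNA among the 1603 of the table that had a RefSeq sequence.

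The family comes from 2 clusters. The hairpins of miR-429, miR-200a and miR-200b lie within 1846 bases at chr4:156053905-156055750 on the minus strand, in introns of the coding gene Ttll10, which runs on the same strand. The miR-429 hairpin also overlaps an exon of the non-coding transcript Gm13648. The hairpins of miR-141 and miR-200c lie within 477 bases at chr6:124717914-124718390 on the minus strand, inside the non-coding gene Gm15884 and near the coding gene Phb2, whose edge is 964 bases from the miR-141 hairpin. The miR-203 hairpin, at chr12:112130880-112130955 on the plus strand, overlaps no annotated gene once miRNA genes are left out of the search. Aspg is the nearest coding gene at 3321 bases. The miR-205 hairpin, at chr1:193507463-193507530 on the minus strand, lies in an exon of the long non-coding RNA 4631405K08Rik.

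Depth decides how much can be said of each library. The deposited levels are log2 of FPKM, a number of reads divided by the length of the mature miRNA and by the depth of that library, and the lowest steps gave back the value of 1 read. Mapped reads ran from 212621 to 6526695 in the young and from 120437 to 7761592 in the aged libraries, as recovered from the levels. Young replicate 6 and aged replicate 3 held 64.9% of all mapped reads. The muscle identity of the libraries was plain in every case, with miR-133a-3p, a muscle-enriched miRNA, between 4223478 and 7152420 FPKM.

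The first question was how much of each miRNA the muscle held. Pooled over the 12 libraries, miR-203-3p stood at 1566 FPKM from 759 reads (95% interval 1457 to 1682). All intervals on reads are exact Poisson intervals, and those on shares of reads are exact binomial. Both cover counting error only, not the spread between mice. miR-141-3p followed at 76.4 FPKM from 37 reads (53.8 to 105). The other 5 lay between 6.19 and 12.4 FPKM, from 3 to 6 reads each, with intervals that overlapped one another, so their order could not be told at this depth. Of all reads of the 7 miRNAs, miR-203-3p made up 92.9% (exact binomial interval 90.9 to 94.6). By library this share ran from 84.4% in aged replicate 6 to 100% in libraries such as young replicate 2.

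By mean FPKM, miR-203-3p ranked 161 of the 723 miRNAs with a read in young muscle and 136 of 785 in aged muscle. In the plot of levels beside other cell types, it lies in the range of miR-194-5p and miR-206-3p and far below miR-133a-3p. The 6 scarce miRNAs lie towards the left of the axis. Of these, miR-141-3p reached 11 reads in aged replicate 3, and none of the others had more than 3 in any library.

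**Figure D1:**
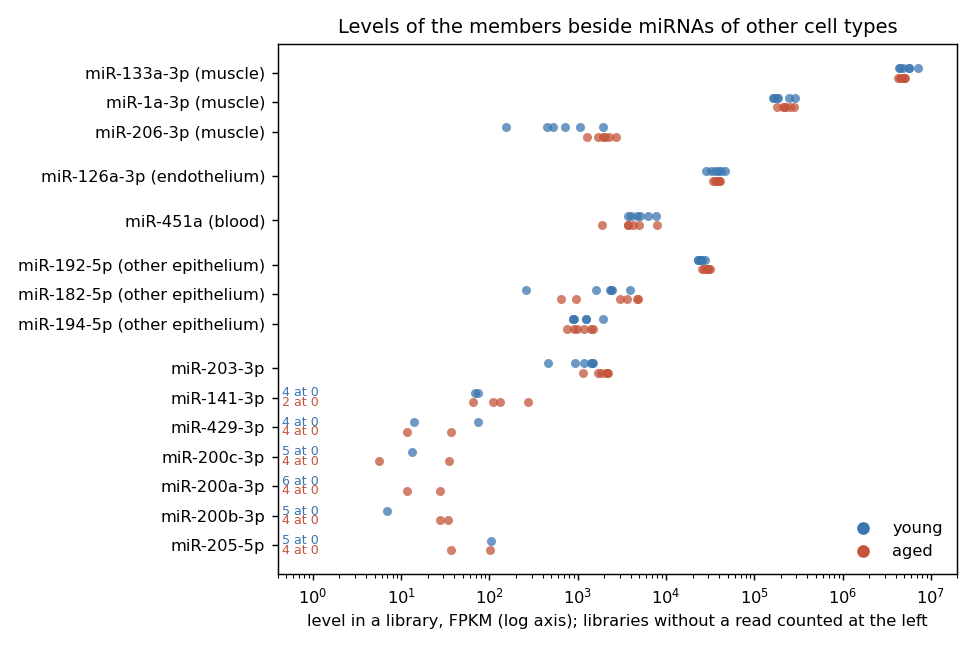
Level of each member and of miRNAs known from other cell types in each library, in FPKM on a log axis, with young libraries in blue, aged libraries in red and libraries without a read counted at the left. miR-203-3p lies between 458 and 2226 FPKM in all 12 libraries, while each of the other 6 members is at 0 in at least 6 libraries.

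The second question was whether these levels differed between young and aged muscle. For miR-203-3p the lowest, median and highest young libraries stood at 458, 1297 and 1499 FPKM, and the aged ones at 1136, 1975 and 2226 FPKM. Aged libraries were mostly higher, yet the groups overlapped through aged replicate 5. The lowest value of each group rested on 3 reads, in young replicate 3 and in aged replicate 5. The 5 other aged libraries, with 51 to 317 reads, all lay above the highest young library. Expressed as RPM, the reads for every 1000000 mapped reads, a scale used here only to compare libraries for the same miRNA, young muscle averaged 25.4 ± 8.91 (SD, n = 6). Aged muscle averaged 40.9 ± 8.87 (SD, n = 6).

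The 2 deepest libraries gave the most precise reading of miR-203-3p. Young replicate 6 had 133 reads, or 20.3 RPM (17.1 to 24.2). Aged replicate 3 had 317 reads, or 40.9 RPM (36.5 to 45.6). These intervals did not overlap, but they compare 1 muscle of each age.

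**Figure D2:**
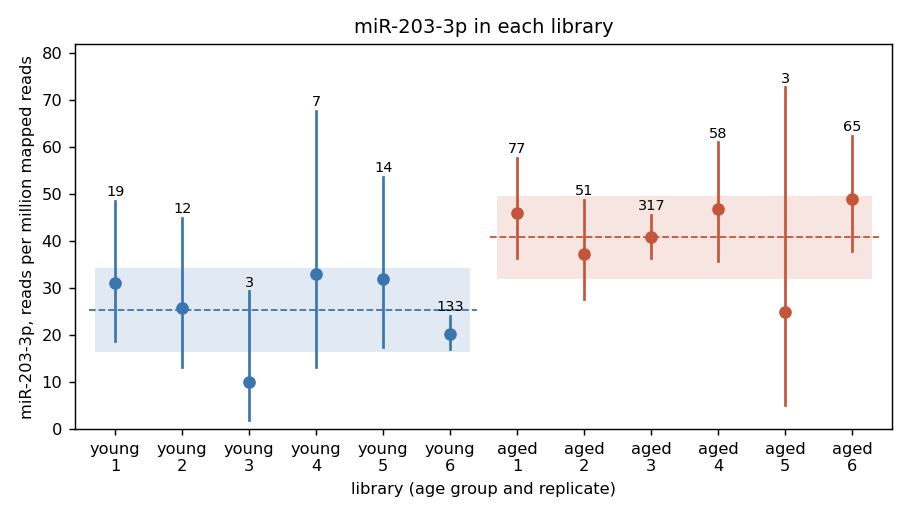
Level of miR-203-3p in RPM in each library, with the exact 95% Poisson interval as a bar and the number of reads above it. Dashed lines and shading give the mean and SD of each age group, 25.4 ± 8.91 in young and 40.9 ± 8.87 in aged muscle, and aged replicate 5, with 3 reads, is the one aged library within the young range.

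On the log2(FPKM + 48.2) scale miR-203-3p changed by 0.72 (SE 0.28, 95% interval 0.14 to 1.31) from young to aged muscle. With limma the unadjusted p was 0.0166 and the p adjusted over all 482 tested miRNAs was 0.215, so the difference did not pass the threshold of 0.05. For comparison, 2.9% of the tested miRNAs had an adjusted p under 0.05 and 12.9% an unadjusted one. miR-203-3p also passed an unadjusted p under 0.05 with a fold change of at least 1.5, as 4.15% of tested miRNAs did in the same direction. The study's first list of changed miRNAs, drawn by such thresholds from these same libraries, held miR-203-3p, so this is not independent evidence of its direction. The study then measured some of the listed miRNAs by qRT-PCR. It reported an increase for every higher one it measured, miR-203-3p included, with a modest rise in some. Those measurements were not analysed here. Afterwards the study raised its fold threshold for higher miRNAs, and the change it listed for miR-203-3p lies below the raised threshold.

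The call of miR-203-3p differed under 1 other fit. limma voom on the recovered reads, which gives less weight to values resting on few reads, gave a log2 change of 0.87 (SE 0.22) with an adjusted p of 0.0287, and 0.622% of tested miRNAs were called higher in aged muscle by that fit. In the other fits the adjusted p stayed above 0.05, and the change was higher in aged muscle each time. With depth as a covariate the log2 change was 0.67 (limma adjusted p = 0.305). Leaving out aged replicate 5, the library with 3 reads, gave a log2 change of 0.86 (limma adjusted p = 0.123). Leaving out young replicate 3, the other library with 3 reads, gave 0.49 (limma adjusted p = 0.429).

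**Figure D3:**
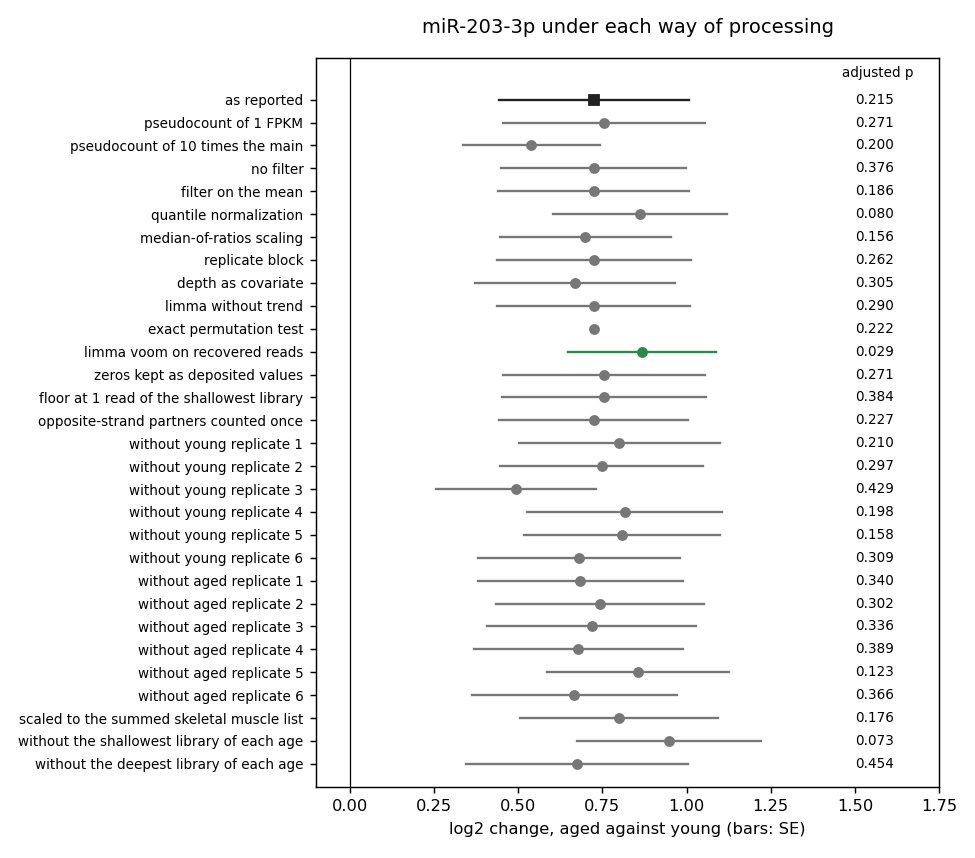
Log2 change of miR-203-3p from young to aged muscle under each way of processing, with the SE as a bar (none for the permutation test) and the adjusted p at the right. Each of the changes lies above 0, between 0.49 and 0.95, and the green point, limma voom on recovered reads with an adjusted p of 0.0287, is the one under 0.05.

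Of the 7 miRNAs, 2 were above 0 in at least 5 libraries and could be tested. By limma 0 of these 2 had an adjusted p under 0.05, beside 2.9% of all tested miRNAs, and 1, miR-203-3p, had an unadjusted one, beside 12.9%. The other arm of the miR-203 hairpin, miR-203-5p, had 9 reads, 2 in young replicate 1 and 1 to 3 in each of 5 aged libraries, so miR-203-3p took 98.8% of the reads of both arms (exact binomial interval 97.8 to 99.5). miR-203-5p changed by 0.24 (SE 0.37, limma adjusted p = 0.854). A miR-203b entry on the opposite strand of the same hairpin was not analysed here. Whether the counting used strand is not stated, but elsewhere some opposite-strand entries had equal levels. Both miR-136-3p and miR-3071-5p averaged 11.75 in young and 9.81 in aged muscle on the log2 scale, so reads there were counted for both strands.

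Next to miR-203-3p the miR-200 family was scarce. Its 5 members had 53 reads in all, 17 in young and 36 in aged muscle. That is 1.99 RPM in young (1.16 to 3.18) and 2.67 in aged muscle (1.87 to 3.70), and the intervals overlapped, so a difference between the ages was not detectable at this depth. Without the deepest library of each age, a choice made after seeing the data, 2 young reads remained and the values were 0.988 (0.120 to 3.57) and 3.50 (2.14 to 5.41) RPM.

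Most reads of the family were of 1 member. miR-141-3p had 37 of the 53 reads, or 69.8% (exact binomial interval 55.7 to 81.7). The chromosome 6 cluster, miR-141-3p with miR-200c-3p, gave 41 reads and the chromosome 4 cluster 12. Within the chromosome 6 cluster, miR-141-3p took 90.2% of the reads (76.9 to 97.3), although both hairpins lie within 477 bases on the same strand. By seed, the pair with AACACUG had 40 reads, of which 3 were of miR-200a-3p, and the 3 miRNAs with AAUACUG had 13.

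miR-141-3p was read in 2 young and 4 aged libraries. In young muscle it had 10 reads in replicate 6 and 1 in replicate 1. In aged muscle it had 11 reads in replicate 3, 8 in replicate 6, 4 in replicate 2 and 3 in replicate 4. The median was therefore 0 FPKM in young and 87.6 FPKM in aged muscle, with the highest libraries at 74.5 and 274 FPKM. Because most young libraries were shallower, depth and age cannot be told apart in these counts and medians. Pooled by age, miR-141-3p stood at 1.29 RPM in young (0.642 to 2.30) and 1.93 in aged muscle (1.26 to 2.83), with overlapping intervals.

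The 6 libraries without a read of miR-141-3p can be set against the number expected at the rate of the other 11, which assumes the same rate at both ages. On that count, young replicates 2 to 5 would have held 0.361 to 0.799 reads each and aged replicate 5 0.203. Aged replicate 1 had 0 reads against 3.03. Aged replicate 6 had 8 reads against 1.86. Its 6.04 RPM (2.61 to 11.9) lay above the 1.42 (0.708 to 2.54) of aged replicate 3, the deepest library.

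The test of miR-141-3p gave a log2 change of 0.83 (SE 0.48, 95% interval -0.17 to 1.83, limma adjusted p = 0.478). It was 0.18 with a pseudocount 10 times as large and 2.60 with one of 1 FPKM. With limma voom on recovered reads, which differs in scale, offset and weights, it was 0.15. With depth as a covariate it was 0.58 (limma adjusted p = 0.640). Leaving out 1 library gave 0.53 to 1.08, the lowest without aged replicate 6.

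The other 4 members of the family had too few reads for any fold change. miR-429-3p had 3 reads in young and 3 in aged muscle, in replicates 1 and 6 of the young and 3 and 4 of the aged. miR-200c-3p had 2 and 2 reads, and miR-200b-3p 1 and 2. miR-200a-3p had 0 reads in 8550241 young mapped reads, against a limit of 0.351 RPM, the level that 3 reads would have there, and 3 reads in aged muscle, or 0.223 RPM (0.0459 to 0.651). In all of these each library held at most 2 reads.

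**Figure D4:**
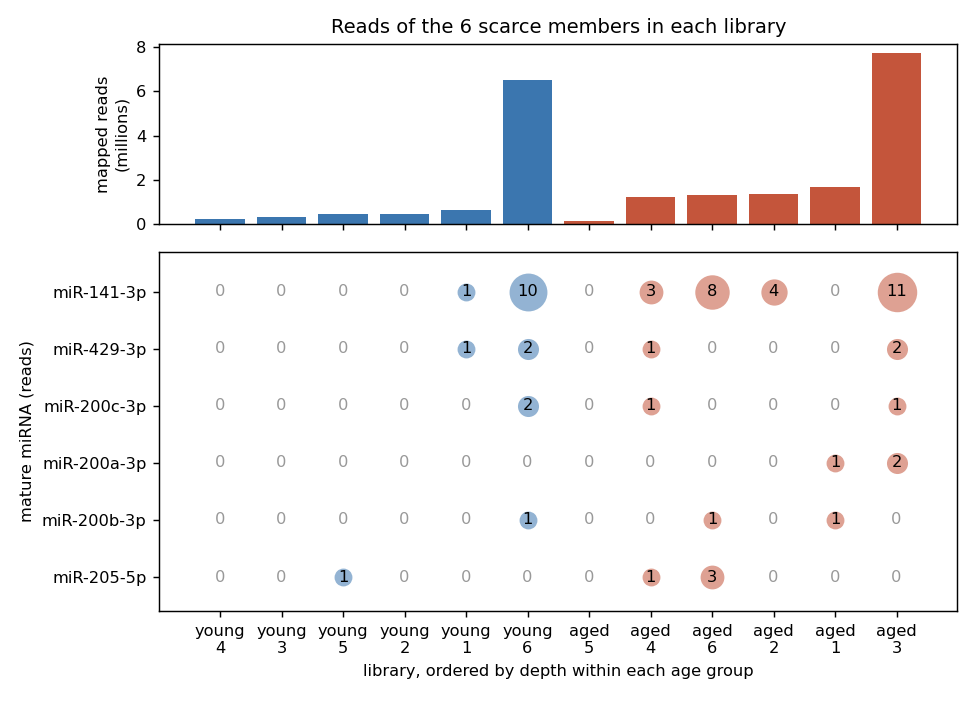
Mapped reads of each library (top) and recovered reads of the 6 scarce members (bottom), with libraries ordered by depth within each age group and circles growing with the number printed in them. miR-141-3p has 10 reads in young replicate 6 and 11 in aged replicate 3, the deepest libraries, and 8 in aged replicate 6. Of the 5 reads of miR-205-5p, 3 fall in aged replicate 6.

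miR-205-5p, the stratified epithelium miRNA, had 5 reads in all, 3 in aged replicate 6 and 1 each in aged replicate 4 and young replicate 5. Neither of the deepest libraries held a read, although 2.72 would have been read in aged replicate 3 and 2.11 in young replicate 6 at the rate of the other 11 libraries. The limit at 3 reads was 0.387 RPM in aged replicate 3 and 0.460 in young replicate 6. Aged replicate 6 stood at 2.26 RPM (0.467 to 6.62). It was singled out after its reads were seen, and no test of it was run.

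Pooled by age, miR-205-5p stood at 0.117 RPM in young (0.003 to 0.652) and 0.297 in aged muscle (0.0809 to 0.760), with overlapping intervals. Without aged replicate 6 the aged value was 0.0823 RPM. No library held more than 3 reads of it, so no fold change is given.

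The libraries can also be read one by one. Young replicates 2, 3 and 4 and aged replicate 5, the deepest of them with 465339 mapped reads, held miR-203-3p alone of the 7. Young replicate 6, aged replicate 3 and aged replicate 4 held 5 of the 7. Aged replicate 4 reached that number with 1228036 mapped reads, and with 1 read each of miR-429-3p, miR-200c-3p and miR-205-5p. Aged replicate 6, with 6.02% of all mapped reads, held 3 of the 5 reads of miR-205-5p and 8 of the 37 of miR-141-3p. Its level of miR-203-3p, 2226 FPKM, was the highest by value. Its interval, 37.9 to 62.5 RPM, overlapped those of aged replicate 4 (35.9 to 61.1) and aged replicate 1 (36.5 to 57.8). Aged replicate 6 was picked out after its reads were seen. Without aged replicate 6 the log2 change of miR-203-3p was 0.67 (limma adjusted p = 0.366).

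Reads of miR-203-3p and of the scarcer members can be set side by side in the aged libraries. In aged replicate 3 it had 317 reads beside 0 of miR-205-5p and 16 of the whole miR-200 family. In aged replicate 1 it had 77 reads beside 0 of miR-205-5p, 0 of miR-141-3p and 2 of the family. In aged replicate 6 it had 65 beside 3 and 9. It had 58 beside 1 and 5 in aged replicate 4, 51 beside 0 and 4 in aged replicate 2, and 3 beside 0 and 0 in aged replicate 5. These are reads of libraries that differ in depth, and whether the members vary together was not tested. Correlations between members were not computed, because no pair had both members in at least 10 libraries.

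Other miRNAs known from epithelia were looked at beside the members. Of a list of 12, all had a read in at least 1 library and 9 could be tested. By limma 0 of the 9 had an adjusted p under 0.05 and 2 an unadjusted one, beside 2.9% and 12.9% of all tested miRNAs. By limma voom 0 of the 9 had an adjusted p under 0.05 and 1 an unadjusted one, beside 3.32% and 14.3% of all tested miRNAs. The median log2 change was 0.43 over these 9 and 0.07 over all tested miRNAs. This 0.43 is the value of miR-182-5p (SE 0.50, limma adjusted p = 0.760). Single changes ran from -0.82 for miR-96-5p to 1.25 for miR-34c-5p, and miR-194-5p was also lower, at -0.06. Because most young libraries were shallower, depth and age cannot be told apart for those without a read in some libraries. The summed level of the list ran from 24873 to 32005 FPKM in young and from 29908 to 39239 FPKM in aged muscle, and most of it was miR-192-5p, a miRNA of gut and kidney epithelium, at 22851 to 31216 FPKM.

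Markers of further tissues gave the following levels beside the miR-203-3p values, and their counts are to be read against the same shares of all tested miRNAs, 2.9% adjusted and 12.9% unadjusted by limma, 3.32% and 14.3% by limma voom. The 2 endothelial miRNAs summed to 307743 to 455685 FPKM in young and 336491 to 382329 FPKM in aged muscle, and neither had an adjusted p under 0.05. The 4 of 6 blood cell miRNAs that had a row by that name summed to 10684 to 15441 FPKM in young and 7803 to 19182 FPKM in aged muscle, with 0 of 4 called by limma or limma voom and 1 at an unadjusted p under 0.05 in each. The 4 fibroblast and smooth muscle miRNAs summed to 3935580 to 5890648 FPKM in young and 4830825 to 6141537 FPKM in aged muscle, with 0 of 4 called by limma or limma voom and 1 at an unadjusted p under 0.05 in each. Most of that sum was miR-143-3p, at 3886392 to 5849979 FPKM in young and 4784710 to 6098403 FPKM in aged muscle. The 4 nerve and glia miRNAs summed to 4338 to 9849 FPKM in young and 3878 to 8303 FPKM in aged muscle, with 0 of 4 called by either fit and 0 by limma or 1 by limma voom at an unadjusted p under 0.05. Most of this was miR-338-3p, at 4211 to 9541 FPKM in young and 3444 to 7968 FPKM in aged muscle. In each of these lists the ranges of young and aged libraries overlapped, and their part in the miR-203-3p values was not tested.

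Among the 7 skeletal muscle miRNAs limma called 1, miR-206-3p, beside 2.9% of all tested miRNAs. miR-206-3p is made in regenerating and slow fibres and rose by a log2 change of 1.54 (limma adjusted p = 0.0296). The summed level of that list was 7100984 to 9255809 FPKM in young and 6776141 to 8404268 FPKM in aged muscle. With the libraries scaled to it, a choice made after seeing the data, the log2 change of miR-203-3p was 0.80 (SE 0.29, limma adjusted p = 0.176).

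The miRNAs whose levels followed miR-203-3p most closely over the 12 libraries were miR-25-3p (Pearson's r = 0.87, Spearman's rho = 0.73), miR-27a-3p (r = 0.83, rho = 0.73) and miR-676-3p (r = 0.81, rho = 0.59), out of 288 with a read in at least 10 libraries. These are the highest of many values and are given as a description. Within the young libraries r was 0.94, 0.84 and 0.90, and within the aged ones 0.18, 0.46 and 0.22. Each of these rests on 6 libraries, and a difference between the ages was not tested. Young replicate 3, by far the lowest young library for miR-203-3p, held 3 reads of it, and r without that library was not computed. None of the 3 had an adjusted p under 0.05 between young and aged muscle by limma, the smallest being 0.0996 for miR-25-3p.

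The opposite arms of the other member hairpins were almost without reads. miR-200a-5p had 1 read, in aged replicate 3, and the opposite arms of miR-200b, miR-200c, miR-141, miR-429 and miR-205 had 0 reads in the 12 libraries together, against a limit of 0.136 RPM for each at 3 reads.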

How the data were processed

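Small RNA libraries of gastrocnemius muscle were measured in 6 young and 6 aged mice. Per their methods, the authors removed adaptors, aligned to mm10 using BWA with unchanged settings, and derived FPKM for miRBase mature miRNAs. TopHat2, also in the submitters' processing notes, belonged to the mRNA data. From its values the deposited table holds log2 FPKM, with no pseudocount seen and 0 where there was no read. Strand use and the handling of reads with several hits are not given in the sources used here.

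The log was undone and genomic copies were summed (2035 rows, 1900 miRNAs). The value of 1 read was found in each library from FPKM times the RefSeq mature length, and of 2986 values below 25 reads, 99.2% came within 0.15 of a whole number.

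Levels, log2(FPKM + 48.2) (the pseudocount being the median, across libraries, of each one's lowest nonzero FPKM) were fitted for the 482 miRNAs above 0 in at least 5 libraries with limma 3.58.1 in R 4.3.3 (trend, aged against young, two-sided, Benjamini-Hochberg). A fold change on this scale understates that of low miRNAs. The fit was tested on simulated data. Counts of 0 are given with the level that 3 reads would have. Intervals are exact at 95%. Python 3.11.15, pandas 2.3.3, NumPy 2.4.6 and SciPy 1.17.1 were used. Positions are from RefSeq and GENCODE M21.

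The members, lists and tests were chosen with earlier results of these data known. The text names the 7 members, the arms of their hairpins, miRNAs of their seeds, the marker lists and the 3 miRNAs most like each member read in at least 10 libraries. miR-192-5p, miR-133a-3p, miR-194-5p, miR-182-5p, miR-183-5p, miR-96-5p, miR-34c-5p, miR-143-3p and miR-338-3p of the lists were named after their values were seen. Alternatives were other pseudocounts, filters, scalings, zeros, tests, a replicate block, depth as a covariate and leaving out libraries. Same-numbered young and aged libraries did not deviate together (r from -0.0943 to 0.0949), so the numbers were not taken as pairs.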

Additional observations from a re-analysis of the deposited data

Results flagged for a closer look

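In 13 groups of 6 libraries with more than 1 value, Dixon's test at its 95% limit set 1 library apart in 5. In 3 of those 5 no other library had a read, and in the other 2 there was 1 other library with a read. Chance would give 0.65 of 13 groups of continuous values, a figure that does not apply to groups made mostly of ties at no read, where 1 read is enough. A library without a read has a log2(FPKM + 48.2) of 5.59. The levels that stood apart were 5.79 for miR-200b-3p and 5.94 for miR-200c-3p in young replicate 6, from 1 and 2 reads, 7.25 for miR-205-5p in young replicate 5, from 1 read, 6.38 for miR-200c-3p in aged replicate 4, from 1 read, and 6.94 for miR-429-3p in young replicate 1, from 1 read. For miR-203-3p the gap of the lowest library was 0.583 of the range in young and 0.596 in aged muscle, which did not reach the limit.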

How the results depend on the processing

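The direction of miR-203-3p was higher in aged muscle in all 29 alternatives, with log2 changes of 0.49 to 0.95, and its adjusted p ran from 0.0287 to 0.454, under 0.05 only with limma voom on recovered reads, where the number of members called was 1 in place of 0. That of miR-141-3p was higher in the 28 alternatives that gave a value. With every value raised to at least 1 read of the shallowest library all 12 of its values were equal and no change could be had. The number of all miRNAs called, 14 of 482, was 6 with a pseudocount of 1 FPKM, 7 without a filter, 8 with depth as a covariate, 6 with zeros kept as deposited values, 7 with the floor at 1 read, 6 with opposite-strand partners counted once, and 6 to 15 when leaving out 1 library. It was 0 with the exact permutation test, which had 66 at an unadjusted p under 0.05 and a smallest possible p of 0.00216. Leaving out 1 library left 0 members called each time. With the replicate block 14 miRNAs were called, 0 of them members, and miR-203-3p had a limma adjusted p of 0.262. No young library had its highest correlation with the aged library of its own number. Pair correlations and their alternatives were not run, because only miR-203-3p was read in at least 10 libraries. Depth limits every statement on the 6 scarce miRNAs.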

Other observations

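Other epithelial miRNAs differed in where their low libraries lay. miR-182-5p, from a cluster known from sensory epithelia, was at 261 and 639 FPKM in young replicate 6 and aged replicate 3, the deepest libraries, and at 962 to 4871 FPKM in the other 10. miR-183-5p of the same cluster was at 202 and 164 FPKM there and at 465 to 3083 FPKM elsewhere. In the same libraries miR-192-5p was at 22851 and 31216 FPKM, the lowest and the highest of the 12, and miR-203-3p at 923 and 1859 FPKM, within the range of the others. Depth and the level of miR-182-5p cannot be told apart with 2 such libraries.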
